A study of Mus musculus with 4 samples.

Results

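Small RNAs from the 3' UTRs of 5 mouse genes that encode proteins secreted into blood plasma, Alb, Serpina3k, Ahsg, Cfi and Pon1, were examined in liver and spleen. The libraries came from adult C57BL/6 mice, and were WT liver, WT spleen, Miwi2-/- liver and Miwi2-/- spleen, with 1 library for each tissue and genotype. The Miwi2-/- mice came from a knockout line made earlier, whose allele the methods do not describe. MIWI2 (gene Piwil4) is a Piwi protein best known for binding piRNAs, small RNAs that direct retrotransposon silencing in fetal male germ cells. The labels do not say how many animals went into a library, so no difference between libraries has a replicate check and none was tested. What was deposited for each library is a list of distinct sequences in somatic 3' UTR clusters, without read counts, positions or gene names, and every value below counts a distinct sequence once.

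The 5 genes were chosen by the function of their proteins and, with earlier results known, by their numbers of distinct sequences in the liver and spleen lists. Their counts and tissue pattern are therefore a description. A sequence was given to a gene if at least 50% of it lay in the gene's annotated 3' UTR, or if it lay downstream and could be reached in steps of at most 2 kb between WT liver sequences. By this rule 190 of the 7845 sequences in the 4 lists belonged to the 5 genes, out of 792 genes with at least 1 sequence. They made up 170 of 4273 sequences in WT liver (3.98%, exact Clopper-Pearson 95% interval 3.41 to 4.61) and 20 of 560 in Miwi2-/- liver (3.57%, 2.19 to 5.46). None was found among 2634 sequences in WT spleen or 378 in Miwi2-/- spleen, which allows shares of up to 0.114% and 0.794% (3 counts), with exact Clopper-Pearson upper limits of 0.140% and 0.971%. All such intervals and limits cover counting error only. They apply to the lists, which hold sequences of called clusters alone. Small RNAs of these genes in spleen that did not meet the authors' cluster criteria would not appear. The overlap rule had little effect at its edge. The Serpina3k sequence just outside it had 10 of 22 nt in the 3' UTR, and the Ahsg sequence just inside it had 10 of 18 nt. Extending the downstream steps to 5 kb added no WT liver sequence to any of the 5 genes. The authors extended clusters by a like 2 kb rule, and the lists hold sequences of those clusters alone. The wider step therefore does not check the 2 kb step.

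Hepatocytes make most of the proteins of blood plasma and secrete them in large amounts, and the mRNAs of these proteins are among the most abundant in liver. Albumin (Alb) carries fatty acids, hormones and drugs and holds the osmotic pressure of plasma. Serpina3k belongs to the serpins, a family of protease inhibitors, and Ahsg encodes fetuin-A, which binds calcium phosphate and keeps mineral in solution. Cfi encodes complement factor I, the protease that inactivates C3b and C4b and so restrains complement. Pon1 encodes paraoxonase 1, an enzyme carried on high density lipoprotein that hydrolyses lactones and organophosphates. In this study, the 3' UTR is of interest since small RNAs piled up there and sometimes ran past its annotated end.

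The 3' UTRs of the 5 genes were short. In GENCODE M1 on NCBIM37 (mm9), Alb (ENSMUSG00000029368.9, plus strand) has a 3' UTR of 173 nt in 2 parts, chr5:90904334-90904362 (29 nt) and chr5:90905486-90905629 (144 nt). The 3' UTR of Serpina3k (ENSMUSG00000058207.5, plus strand) spans chr12:105583629-105583951 (323 nt), and that of Ahsg (ENSMUSG00000022868.5, plus strand) spans chr16:22899146-22899511 (366 nt). The 3' UTR of Cfi (ENSMUSG00000058952.7, plus strand) lies at chr3:129578054-129578246 (193 nt), and that of Pon1 (ENSMUSG00000002588.5, minus strand) at chr6:5118090-5118340 (251 nt). The cluster regions that the authors deposited for WT liver ran 2634 nt past the annotated end of Alb, 2616 nt past that of Serpina3k and 1371 nt past that of Ahsg. Those of Cfi and Pon1 ended at the annotated end.

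Of the 20 Miwi2-/- liver sequences of the 5 genes, 4 were found letter for letter in the WT liver list, 3 of Alb and 1 of Ahsg. Over the whole Miwi2-/- liver list this was 114 of 560 (20.4%), a like share. They are shown since they are the molecules seen in both genotypes, written 5' to 3' in the direction of the gene with T for U. A capital marks a base that differs from the genome. The first Alb sequence lies at chr5:90905500-90905524 and matches the genome exactly. The other two Alb sequences, at chr5:90905580-90905606 and chr5:90905581-90905606, start 1 nt apart and end at the same base. There the last base was C in place of the genome's T (T27C and T26C, counted from 1 at the 5' end). The Ahsg sequence lies at chr16:22899487-22899509, where its terminal A replaces a G (G23A).
Alb, both livers: aaaagacatgaagactcaggactca
Alb, both livers: ttgacttcttgtctctgtgctgcaatC
Alb, both livers: tgacttcttgtctctgtgctgcaatC
Ahsg, both livers: ttctcaaataagaaggctctgaA

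The sequences within a cluster overlapped and often differed by a few bases at either end. The next set shows this for Ahsg at chr16:22899407-22899435, where 4 WT liver sequences started at neighbouring bases and ended within 3 nt of each other. The Miwi2-/- liver sequence there shared its 5' end with the third WT sequence and its 3' end with the first.
Ahsg, WT liver, 22899407 to 22899435: aaaacagttgcaaccacgactctgaaagA
Ahsg, WT liver, 22899408 to 22899433: aaacagttgcaaccacgactctgaaa
Ahsg, WT liver, 22899409 to 22899434: aacagttgcaaccacgactctgaaaA
Ahsg, WT liver, 22899410 to 22899432: acagttgcaaccacgactctgaa
Ahsg, Miwi2-/- liver, 22899409 to 22899435: aacagttgcaaccacgactctgaaagA

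Cfi and Pon1 had few sequences, all from WT liver, and all 9 are printed since the statement that these genes had none in Miwi2-/- liver rests on them. Positions are on chr3 for Cfi and on chr6, minus strand, for Pon1. Of the 5 Cfi sequences, 4 ended in an A that is not in the genome, as did 2 of the 4 of Pon1.
Cfi, 129578081 to 129578103: tttattcttttaggagttacatA
Cfi, 129578137 to 129578161: tcagagctggcaagaagcaactccA
Cfi, 129578184 to 129578210: tccaagtttatgctgttttagaattcA
Cfi, 129578185 to 129578207: ccaagtttatgctgttttagaaA
Cfi, 129578192 to 129578219: tatgctgttttagaattctgccatataa
Pon1, 5118324 to 5118348: gtgatctgtgacaagccagctgcaA
Pon1, 5118273 to 5118297: tttcaatcctttgccatactgtaag
Pon1, 5118149 to 5118174: agggtttcttgagtattactcttaga
Pon1, 5118127 to 5118155: tcttagactacttaaagacaccacttatA

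Alb had by far the most small RNA sequences of the 5 genes. It had 100 distinct sequences in WT liver, of which 84 lay in the annotated 3' UTR and 16 downstream, and 10 in Miwi2-/- liver, all in the 3' UTR. Serpina3k had 38 in WT liver, 32 in the 3' UTR and 6 downstream, and 3 in Miwi2-/- liver, 1 in the 3' UTR and 2 downstream. Ahsg had 23 in WT liver, 17 and 6, and 7 in Miwi2-/- liver, 6 and 1. Cfi had 5 and Pon1 had 4 in WT liver, all in the 3' UTR, and neither had a sequence in Miwi2-/- liver. None of the 5 genes had a sequence in either spleen list, as was so for 89.1% of the 485 genes with at least 3 WT liver sequences (hereafter liver clusters) in WT spleen. In bulk tissue, fewer cells of a type and less RNA per cell cannot be told apart.

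**Figure D1:**
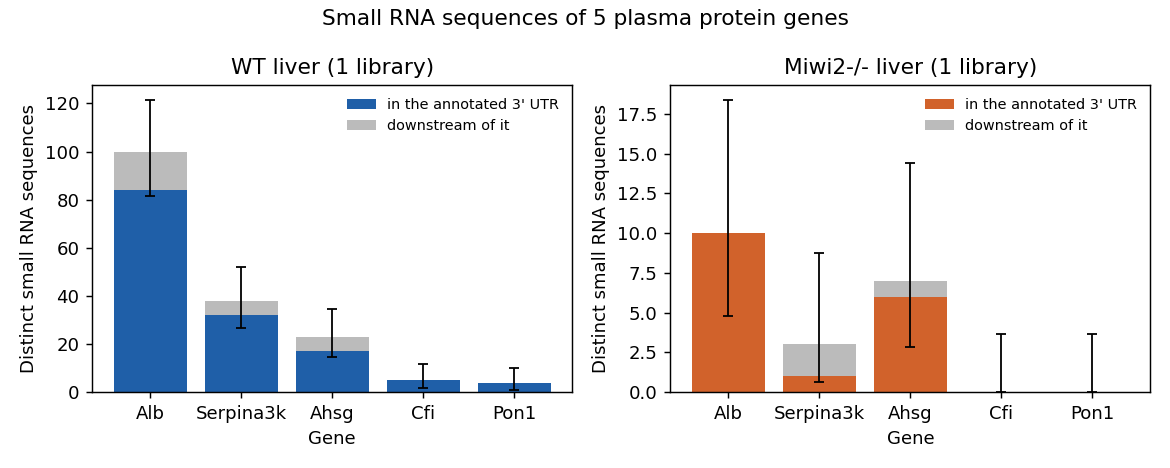
Distinct small RNA sequences (y axis) of each gene (x axis) in the WT liver and Miwi2-/- liver libraries, 1 library each, drawn on separate scales. Colour marks sequences in the annotated 3' UTR, gray marks those downstream, and bars are exact Poisson 95% intervals of the total, for counting error only. Alb stands at 100 in WT liver and 10 in Miwi2-/- liver, and Cfi and Pon1 have none in Miwi2-/- liver.

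Set against all liver clusters, Alb ranked 4th of 485 by the number of WT liver sequences, Serpina3k 10th and Ahsg 27th. Cfi and Pon1 lay at or just under the median of 5 sequences per cluster. Per length of annotated 3' UTR, all 5 genes stood high, with downstream sequences left out. Alb had 486 WT liver sequences per kb, the highest density among the liver clusters, Serpina3k had 99.1 and Ahsg had 46.4. Cfi had 25.9 sequences per kb and Pon1 had 15.9, which ranked 35th and 49th, where the median of the liver clusters was 2.36. The 3' UTRs of the 5 genes are short, and a short 3' UTR needs fewer sequences to reach a given density.

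The counts of Miwi2-/- liver have to be read against its smaller library. Uniquely aligned distinct sequences in Miwi2-/- liver were 0.206 of those in WT liver, and uniquely aligned reads 0.129. Scaled by 0.206, the WT count of Alb comes to 20.6 sequences, and 10 were present (exact Poisson 95% interval of the Miwi2-/- count 4.80 to 18.4). Scaled by reads it comes to 12.9, which lies within that interval, so the reading of Alb turns on which depth is used. For Serpina3k, 7.82 or 4.90 sequences scale from the WT count, and 3 were present (0.619 to 8.77). For Ahsg, 4.73 or 2.96 scale from WT, and 7 were present (2.81 to 14.4). Alb and Serpina3k were thus below both scaled values and Ahsg above both, with both values for Serpina3k and Ahsg inside the counting intervals.

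As a share of the WT count, Miwi2-/- liver had 10% for Alb, 7.89% for Serpina3k and 30.4% for Ahsg. Over all 485 liver clusters the sum in Miwi2-/- liver was 13.1% of that in WT liver, and over the 33 clusters with at least 20 WT sequences the median was 10.3% (interquartile range 5.71 to 13.6). Alb and Serpina3k lay within that range and Ahsg above it. Of the whole Miwi2-/- list Ahsg made up 1.25% (0.504 to 2.56) against 0.538% (0.342 to 0.807) of the WT list, and these intervals overlap.

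The 2 genes without a Miwi2-/- liver sequence, Cfi and Pon1, were those with the fewest in WT liver. Of the 485 liver clusters, 54.8% had no Miwi2-/- liver sequence, and among the 148 clusters with 4 or 5 WT sequences this share was 62.8%. Scaled by the ratio of distinct sequences, their WT counts come to 1.03 and 0.823 sequences. Both lie under the 3 sequences that a count of 0 allows, so an effect of genotype on these genes was not detectable at this depth. Piwil4, the deleted gene, was without a sequence in each list, WT included, which leaves the genotype labels unchecked.

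The sequences of Alb covered its last 3' UTR exon from end to end. All 144 nt were covered in WT liver, and coverage was deepest 27 nt from the start of that exon, where 33 sequences overlapped. From 5' to 3' in stretches of equal length, 36, 23 and 25 sequences were centred in this exon. The 84 sequences there and the 16 downstream began at 64 distinct positions and no position was the start of more than 4. In Miwi2-/- liver the 10 sequences fell in 3, 2 and 5 in the same stretches and covered 98 nt. All 10 lay in this exon, which WT sequences covered in full, so each had to overlap one. Of the 10, 7 shared the 5' end of a WT sequence.

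Alb's 3' UTR is split by an intron of 1123 nt, and the short first part of 29 nt held no sequence in either liver. The region that the authors deposited for Alb begins at the second part. All 4273 WT liver sequences overlapped a deposited region, so a sequence in the first part could not be listed. Its lack there says nothing of the small RNAs of that part. A single WT sequence began 2 nt before the second part, and another began at its first base. The last 2 bases of the first part and of the intron are both ag, so whether the former came from spliced or unspliced RNA cannot be told apart.

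Serpina3k sequences were spread over most of its 3' UTR and were denser near the stop codon. In WT liver they covered 275 of 323 nt, 85.1%, with 15, 12 and 5 in the successive stretches of equal length. Up to 8 of them overlapped at 1 base. The only Miwi2-/- sequence in the annotated 3' UTR began at the same base as a WT sequence, at nt 25 of the 3' UTR. These are shown as the sole case of a shared 5' end in this gene.
Serpina3k, WT liver, 105583653 to 105583678: catgattctgtccagggctctgggaA
Serpina3k, Miwi2-/- liver, 105583653 to 105583682: catgattctgtccagggctctgggacagaA

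Serpina3k has close relatives beside it on chromosome 12, and the counts of this gene are therefore less certain. Of its 41 sequences, 16 matched another place within 500 kb with at most 2 mismatches, 14 of them in Serpina3c and 1 in Serpina3m. Each had its single best match in Serpina3k. Among the 38 WT sequences, 5 had another placement in the genome with 1 mismatch, as did 8 of 100 for Alb, 2 of 23 for Ahsg and none for Cfi or Pon1. Over the whole WT liver list this was 6.88% of sequences. The pair below begins at the same base of Serpina3k, chr12:105583728, and the shorter sequence matched Serpina3c with 1 mismatch.
Serpina3k, WT liver, 105583728 to 105583749: tggctgttccaaagttggctta
Serpina3k, WT liver, 105583728 to 105583754: tggctgttccaaagttggcttagacaA

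Ahsg sequences sat near the 3' end of its 3' UTR. Of the 17 WT sequences in the 3' UTR, 14 were centred in its 3'-most stretch, 1 in the middle and 2 in the 5'-most, and together they covered 135 of 366 nt (36.9%). Most of them formed 2 groups, and 3 lay alone upstream. In the first, 8 WT sequences and 1 Miwi2-/- sequence overlapped between 104 and 62 nt before the annotated end. In the second, 6 WT and 5 Miwi2-/- sequences overlapped between 35 nt before and 6 nt after it. Against the smaller Miwi2-/- library, the Miwi2-/- sequences of Ahsg thus lay mostly in the second group. With 1 library each and so few sequences, the difference between the groups was not tested. In each liver, 3 of these sequences ran past the annotated end by 2 to 6 nt.

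The 3 sequences of Cfi nearest the 3' end overlapped between 62 and 27 nt before it, and the other two lay alone farther upstream. Of the 4 Pon1 sequences, 2 overlapped between 84 and 37 nt before the end. The one farthest upstream began 8 nt before the 3' UTR and had 17 of its 25 nt in it. They covered 84 of 193 nt in Cfi and 90 of 251 nt in Pon1.

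**Figure D2:**
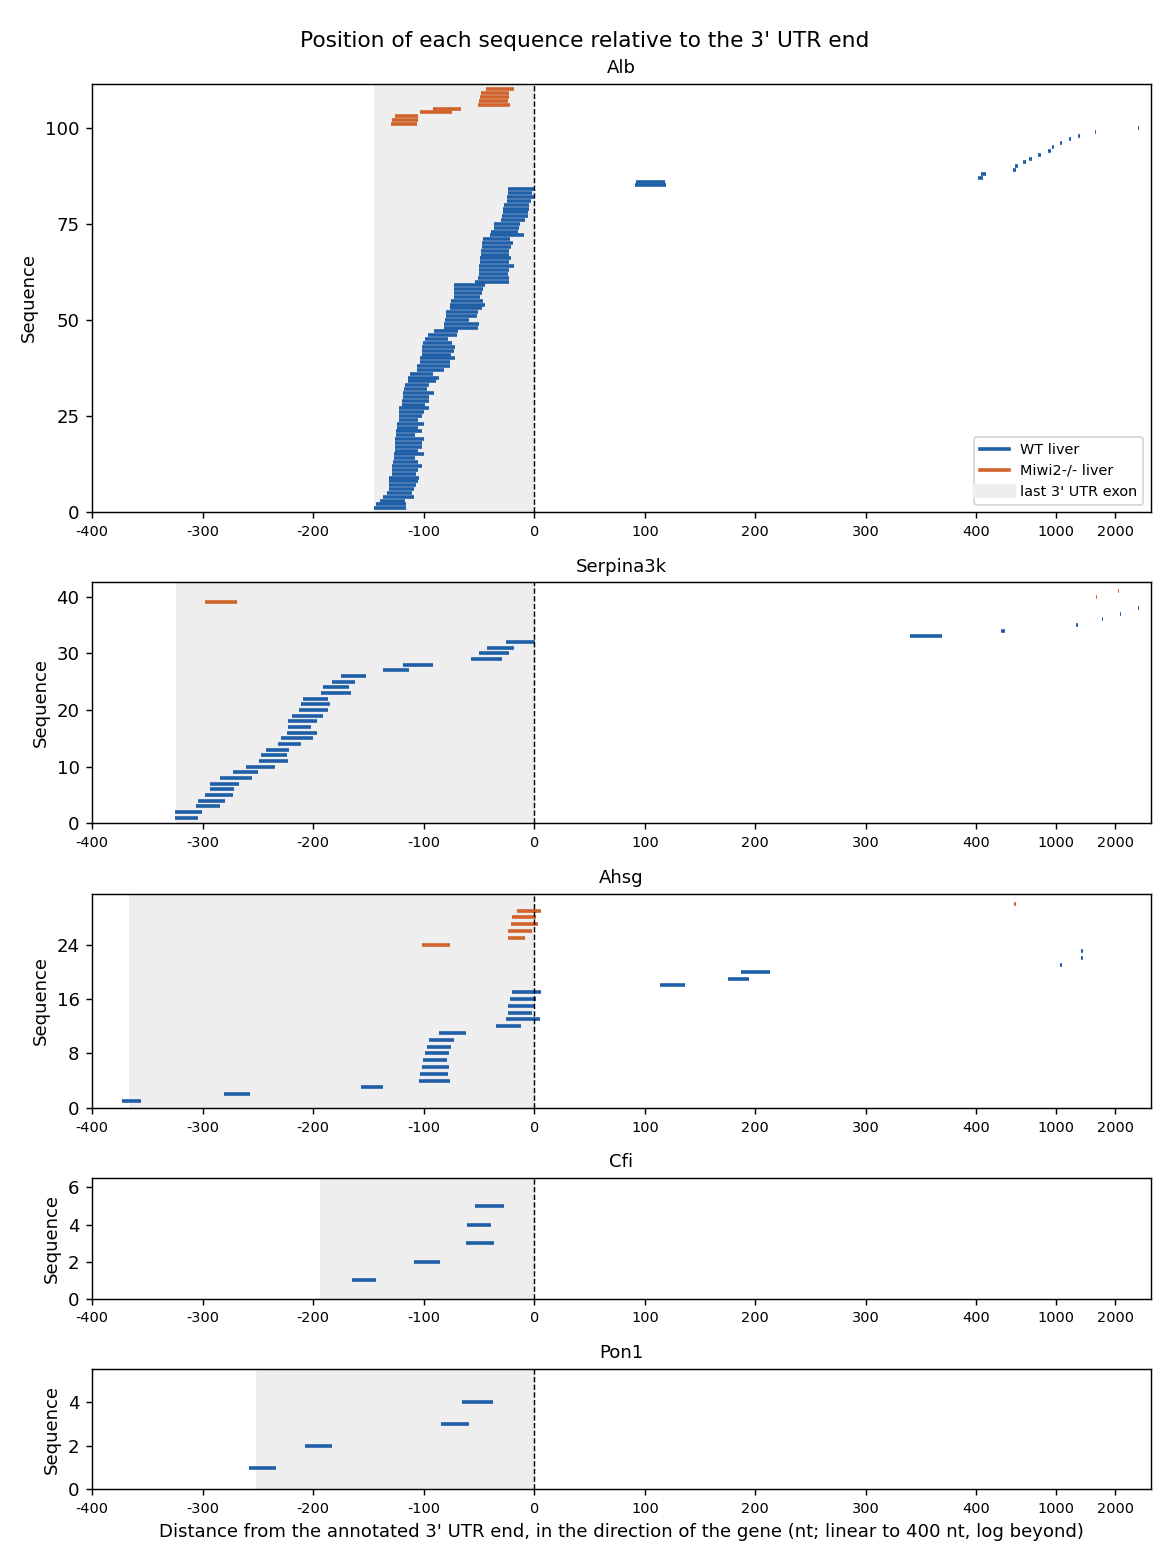
Each line is a distinct sequence, drawn by its distance in nt from the annotated 3' UTR end in the direction of the gene (x axis, linear to 400 nt and logarithmic beyond) and stacked by library and position (y axis). Blue marks WT liver, orange Miwi2-/- liver, and the shaded area is the last 3' UTR exon. Alb covers all 144 nt of that exon, Ahsg has groups from 104 to 62 nt before the end and at the end, and sequences of Alb, Serpina3k and Ahsg run on downstream.

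Sequences past the annotated 3' UTR end were found for Alb, Serpina3k and Ahsg, and not for Cfi or Pon1. The deposited regions of Cfi and Pon1 stopped at the annotated end, so a sequence wholly past it could not be listed. Of all liver clusters, 33.8% had at least 1 such WT liver sequence. They made up 16% of the WT liver sequences of Alb (exact Clopper-Pearson 95% interval 9.43 to 24.7), 15.8% for Serpina3k (6.02 to 31.3) and 26.1% for Ahsg (10.2 to 48.4). Over the 5 genes the share was 16.5% (11.2 to 22.9), against 14.2% (13.1 to 15.3) over the other liver clusters.

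Downstream of Alb, the 16 sequences lay alone or in overlapping pairs. The first began 91 nt past the end and the last ended 2634 nt past it, with a largest step of 1014 nt, and 11 of the 16 began within 1000 nt. No Miwi2-/- liver sequence was assigned downstream of Alb. Downstream of Serpina3k, 6 WT sequences lay from 340 to 2616 nt past the end, and the 2 Miwi2-/- sequences, at 1594 and 2054 nt, overlapped none of them. Downstream of Ahsg, 6 WT sequences lay from 114 to 1377 nt past the end and the Miwi2-/- sequence at 616 nt. The next annotated gene in the same direction began 14.1 kb past the end for Alb (Afp), 12.3 kb for Serpina3k (Serpina3l-ps) and 18.9 kb for Ahsg (Fetub). Since the lists carry no strand, whether a downstream sequence came from the same strand as the gene was not tested. In WT liver, 11 of 16 downstream sequences of Alb ended in a mismatched A, as did 5 of 6 of Serpina3k and 4 of 6 of Ahsg. From the opposite strand, such an A would be printed as a T at the first base. No WT liver sequence of the 5 genes had a first-base mismatch, but the Miwi2-/- sequence downstream of Ahsg had (G1T). By their methods, the authors extended clusters where sense small RNAs were present. The first and the last downstream sequence of Alb are shown for their distance.
Alb, downstream, 90905720 to 90905748: tcagcagagaatgtagttccacatgggca
Alb, downstream, 90908235 to 90908263: taaatagaaccctcacatgaccagaggcA

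Annotated 3' UTR ends usually carry a polyadenylation signal, and the last 50 nt of each 3' UTR were searched on the sense strand for its usual form, AATAAA. This was present in 72.6% of the 485 liver clusters, among them Alb, Ahsg and Cfi, where it ended 17, 41 and 16 nt before the annotated end. A common variant of the signal, in which a single base differs and which reads ATTAAA, was present in 17.5% of the liver clusters. Pon1 had this variant 30 nt before its end, and Serpina3k had neither form in this window.

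The sequences of the 5 genes were on the long side for this series. WT liver sequences averaged 25.7 nt (SD 3.14 over 170 sequences, range 18 to 33), with a median and a most frequent length of 25 nt. The other liver clusters averaged 24.9 nt and most often had 23 nt. Without Vmp1, a gene whose cluster holds a microRNA, these values were 25.1 and 24 nt. Sequences of at least 27 nt, the range of most piRNAs, made up 41.2% (33.7 to 49.0) for the 5 genes and 29.9% (28.5 to 31.3) for the other liver clusters. Without Vmp1, the other liver clusters had 31.5%. By gene this share was 45% for Alb, 44.7% for Serpina3k and 21.7% for Ahsg (7.46 to 43.7). Without Alb, it was 35.7% (24.6 to 48.1), an interval that includes the value of the other clusters. Mean lengths were 26.0 nt for Alb (SD 3.34), 25.7 for Serpina3k (2.68), 24.6 for Ahsg (3.24), 25.2 for Cfi (2.28) and 26.2 for Pon1 (1.89). Overlapping sequences of a gene are not independent, so these intervals understate the error.

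**Figure D3:**
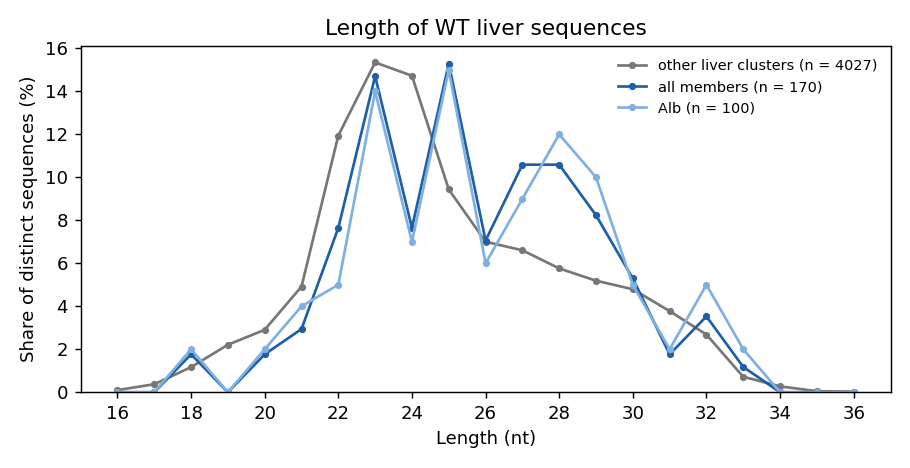
Share of distinct WT liver sequences in % (y axis) by length in nt (x axis) for the 5 genes together, for Alb and for the other liver clusters. The 5 genes have 41.2% of sequences at 27 nt or longer against 29.9% for the other clusters, Vmp1 included.

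In Miwi2-/- liver the 20 sequences averaged 25.2 nt (SD 3.25). The 10 of Alb averaged 26.6 nt and the 7 of Ahsg 22.7 nt. The other liver clusters averaged 23.4 nt in that library, or 23.8 nt without Vmp1. The shortest, of 17 nt, belonged to Ahsg.

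Many piRNAs begin with U, and the 5' base was therefore compared with the composition of the 3' UTRs. Over the 5 genes, 38.2% of WT liver sequences began with A (30.9 to 46.0), 31.2% with U (24.3 to 38.7), 15.9% with C and 14.7% with G. Their 3' UTRs held 29.1% A, 28.5% U, 23.2% C and 19.2% G. That composition is pooled by length, so it gives Alb, the source of most sequences, a small weight, and the values by gene follow. With each distinct 5' end counted once, 34.1% began with A. The shares include downstream sequences, which the composition does not cover. With sequences in annotated 3' UTRs only, 39.4% began with A and 30.3% with U. In the other liver clusters, 35.0% of sequences began with A and 38.1% with U, or 35.3% with U when Vmp1 was left out. That value falls within the interval of the 5 genes, and the value with Vmp1 lies near its upper limit.

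The 5' base varied among the genes, with few sequences behind each value, and these differences were not tested. Alb sequences began with A in 40% and U in 29%, close to the 37.6% and 26.6% of its 3' UTR. Serpina3k had U at 36.8% (21.8 to 54.0) and A at 31.6%, against 31.3% and 22.9% in its 3' UTR. Ahsg began with A in 52.2% (30.6 to 73.2) and U in 17.4%, against 29.0% and 21.9%. This A in Ahsg came in part from the staggered group printed above and in part from its 6 downstream sequences. Most of these 6 began with A, and they lie outside the 3' UTR whose composition is given. The shares of Alb and Serpina3k likewise include downstream sequences. In Cfi 4 of 5 sequences began with U and none with A, and in Pon1 2 of 4 began with U. In Miwi2-/- liver, 10 of the 20 sequences began with U, among them 5 of the 7 of Ahsg. Among these 5, the downstream sequence began with a U where the genome has G (G1T), and its strand was not tested.

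**Figure D4:**
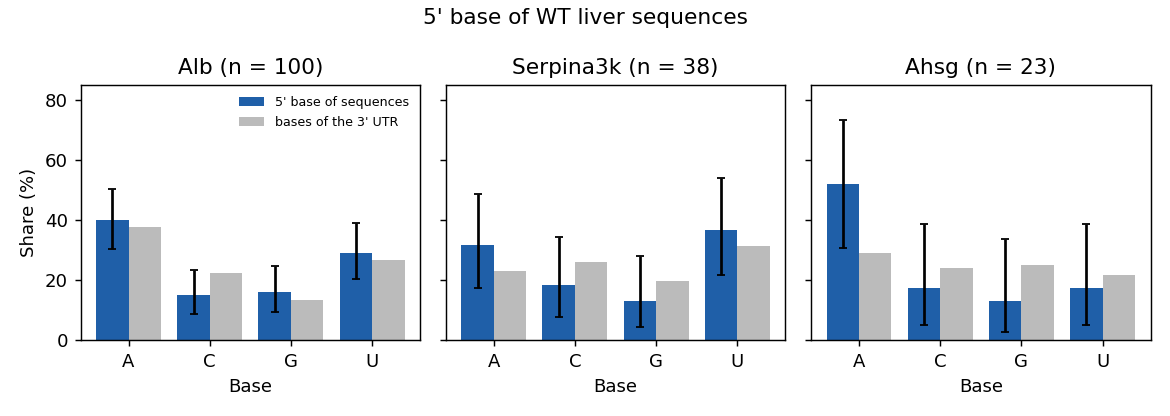
Share in % (y axis) of each base (x axis) at the 5' end of WT liver sequences (blue, with exact Clopper-Pearson 95% intervals for counting error) and in the 3' UTR (gray) for Alb, Serpina3k and Ahsg. Alb follows the composition of its 3' UTR, with A at 40% against 37.6%, while Ahsg has A at 52.2% against 29.0%. Blue bars include downstream sequences, most of which began with A in Ahsg.

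Most sequences ended in A. Of the 170 WT liver sequences, 146 did (85.9%, 79.7 to 90.7), as did 82.4% in the other liver clusters. For 89 of the 170 (52.4%, 44.6 to 60.1) this A was the single base that differed from the genome, against 43.9% in the other clusters, or 46.2% without Vmp1, which falls within that interval. By gene the share was 46% for Alb, 68.4% for Serpina3k (51.3 to 82.5) and 47.8% for Ahsg. Of the 70 sequences that matched the genome throughout, 53 ended in A. The remaining terminal mismatches, 6 in WT liver and 2 in Miwi2-/- liver, all ended in the letters ATC. In Miwi2-/- liver, 16 of 20 sequences ended in A, 7 of them with an A absent from the genome. The 3' adapter was removed from the reads with mismatches allowed, and whether part of it remained at these ends was not tested. Without the mismatched A, the mean length in WT liver was 25.2 nt.

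**Figure D5:**
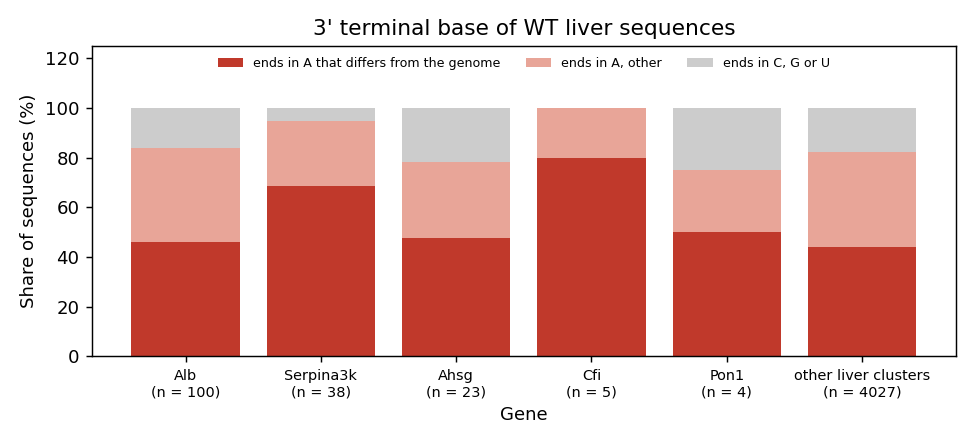
Share of WT liver sequences in % (y axis) by their 3' terminal base, for each gene and for the other liver clusters (x axis). Dark red marks a terminal A that differs from the genome, light red any other terminal A, and gray C, G or U. Dark red covers 46% for Alb and 68.4% for Serpina3k, against 43.9% for the other liver clusters.

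The study measured the mRNA of Ahsg, Cfi and Pon1 by quantitative PCR, with assays of coding exons and of the 3' UTR. The small RNAs were placed relative to the 3' UTR amplicons. All 6 primers of the 3' UTR assays matched the genome once without mismatch. The Ahsg amplicon, chr16:22899471-22899580 (110 nt), had 41 nt in the annotated 3' UTR. The rest, with the reverse primer, lay past its end. The Ahsg amplicon overlapped 6 WT and 5 Miwi2-/- liver sequences, the second group described above. The Cfi amplicon, chr3:129578058-129578156 (99 nt), and the Pon1 amplicon, chr6:5118253-5118325 (73 nt), lay within the 3' UTR, and each overlapped 2 WT sequences. The primers of the 3' UTR assays are shown 5' to 3' as ordered.
Ahsg, forward: agtgcccacacgagctttct
Ahsg, reverse: tccgcttgttgaactgaccac
Cfi, forward: gctatgacctccttctttctaca
Cfi, reverse: ttgcttcttgccagctctga
Pon1, forward: gagatcactgtggtaggcacc
Pon1, reverse: acgcacgtcatcgaaagtga

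Other genes of secreted plasma proteins were covered as well. Of a list of 132 such genes besides the 5, put together with earlier results of these data known, 131 were in the annotation and 24 (18.3%) had at least 3 WT liver sequences, where 2.21% of all genes with an annotated 3' UTR did. None of the 24 had a sequence in WT spleen, where 89.1% of all liver clusters had none. In Miwi2-/- liver 7 of the 24 had none, against 54.8% of all liver clusters. That share depends on the WT count, at 62.8% for clusters with 4 or 5 WT sequences and 9.09% for those with at least 20. The median was 7 WT liver sequences for the 24 genes and 5 for all liver clusters. With at least 5 WT sequences required, 5 of 18 had none in Miwi2-/- liver, against 39.5% of 258 clusters. The most were found for Saa1, an acute phase apolipoprotein, with 27 in WT liver and 1 in Miwi2-/- liver. The fibrinogen chain Fgb had 25 and 3 and its partner Fgg 18 and 4. Rbp4, the carrier of retinol, had 25 and 3, and Apob, the core protein of very low density lipoprotein, had 19 and 2. Thus Alb and Serpina3k exceeded all 24 by count, and Ahsg lay below Saa1, Fgb and Rbp4.

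Not every abundant plasma protein mRNA appeared. Of 10 hepatocyte markers, 4 had sequences in WT liver (Alb, Apob, Fgb and the transcription factor Hnf4a), and Apoa1, Ttr and Serpina1a, which encode major plasma proteins, had none. None of the liver markers had a sequence in either spleen list, and none of 10 markers of spleen lymphocytes and erythroid cells had one in any list. The lists hold sequences of selected clusters alone. A marker or other gene without a sequence, in liver or spleen, may thus have had small RNAs that did not meet the authors' limits.

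By counts over the 4 libraries, on the log2 scale with 1 added, the gene most like Alb was Errfi1, with 157 sequences in WT liver, 16 in Miwi2-/- liver and none in the spleens (Euclidean distance 0.901), followed by Mgst1 with 43 and 5 (1.48). Serpina3k was nearest to Uox with 34 and 3 (0.156). Ahsg was nearest to Epas1 and Tdo2, each with 22 and 5 (0.420). Cfi had the same counts as 25 other genes and Pon1 the same as 55.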

How the data were processed

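Small RNAs were sequenced by the authors from a gel slice that the labels give as shorter in range than the methods do. The authors trimmed the 3' adapter (up to 25% mismatch), merged duplicate reads, discarded known ncRNAs (up to 3 mismatches) and kept reads with a single NCBI37/mm9 placement (up to 1 mismatch). Per the labels, CASAVA 1.8, cutadapt, Bowtie and bedtools were used, with versions of the last 3 not given in the sources used here. A 3' UTR was called a cluster if it held 3 or more small RNAs, passed a minimum density (7.5 reads per kb, scaled to library size), and was 2 times as dense as the coding region or more. The deposited lists hold distinct sequences, with no unit of counts, score or expression, and the deposited cluster regions carry a score of 0 throughout. Depth as reads per sequence is unknown, and depth ratios between the liver libraries were taken from library totals in the supplement of the study.

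The sequences were placed here on NCBIM37 without gaps, 1 mismatch allowed (Python 3.11.15, numpy 2.4.6, numba 0.67.0), tested on simulated data. All lay on the plus strand as printed, so strand was taken from the gene. Genes and 3' UTRs, stop codon included, came from GENCODE M1, and a sequence in several genes went to that with most WT sequences. Lengths and terminal bases of the other liver clusters leave out sequences that overlap 3' UTRs on opposite strands. Shares have exact Clopper-Pearson 95% intervals (scipy 1.17.1). With 1 library per group no test was made. Figures used matplotlib 3.10.9.

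The genes and lists were chosen with earlier results of these data known. The genes named were the 5 genes, the 5 other plasma protein genes with the most WT liver sequences, for each of the 5 up to 2 genes with the nearest counts, and Piwil4. A gene chosen by this rule is left out of the text. Hnf4a, Apoa1, Ttr, Serpina1a and Vmp1 were named after their values were seen. Alternatives tried were exact matches, other overlaps and steps, the deposited regions, distinct 5' ends, other depth ratios and minimum counts, and, chosen after seeing the data, leaving out Alb and requiring no other placement within 1 mismatch.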

Additional observations from a re-analysis of the deposited data

How the results depend on the processing

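Each group held 1 library, so no library could be left out. No paired analysis was possible because each group held 1 library and no test was made. With exact matches only, the WT liver sequences of the 5 genes fell from 170 to 69, the downstream share from 16.5% to 10.1% and the share ending in A from 85.9% to 75.7%, since most mismatches were a terminal A. Of the 70 exact matches, 1 downstream of Serpina3k was no longer within reach of a 2 kb step, and the share ending in A was taken over all 70. Serpina3k then had 0 sequences in Miwi2-/- liver. With at least 5 WT liver sequences required, 1 gene (Cfi) in place of 2 was without a Miwi2-/- liver sequence, as Pon1 then fell short. In all, 15 values moved by more than the limits set, those above and counts of single genes or of Miwi2-/- liver, and 112 by less, none with a change of direction. The ratio of the share of the 5 genes in Miwi2-/- liver to that in WT liver was 0.898 by list, 0.572 per uniquely aligned distinct sequence and 0.913 per uniquely aligned read. The count without Miwi2-/- sequences uses no depth, and another ratio moves the scaled WT counts alone. A downstream share without extension is 0 by construction and was not computed. Without other placements within 1 mismatch, 155 WT sequences remained. Depth limits what can be said of Cfi and Pon1 in Miwi2-/- liver, where a count of 0 allows 3 sequences.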
